A study of Mus musculus with 4 samples.

Results

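MHC class II genes are described here in RNA of hepatic CD8 T cells from mice, isolated on a cell sorter. The members are H2-Aa, H2-Ab1, H2-Eb1, H2-DMa, H2-DMb1, Cd74 and Ciita, matched by symbol in the deposited expression table. All 7 were found among its 15367 genes, and 6 of the 7 passed the filter on low values (4-library mean not under 1), as did 9805 genes in all. They were chosen by measured values, because H2-Ab1 and Cd74 were high in every library, so their levels are given as a description without a test.

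The mice were adult C57BL/6 animals fed an MCD diet for 4 weeks. There were 2 libraries labelled Prf KO, from perforin knockout mice, and 2 labelled WT, from wild type mice given the same diet. The series concerns perforin, the pore-forming protein that CD8 T cells release from their granules, in diet-induced steatohepatitis. The labels name no knockout allele and do not tell whether libraries stem from different mice. The p-values measure the spread between libraries, which may be technical. Values are read as FPKM, fragments scaled by transcript length and sequencing depth.

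Class II molecules show peptides from the endosomal pathway to CD4 T cells. They are pairs of an alpha and a beta chain, in C57BL/6 mice H2-Aa with H2-Ab1, which together form I-A. Cd74, the invariant chain, holds new pairs in an unfilled state, and the H2-DM proteins exchange its last fragment for antigen peptide. B cells, dendritic cells and macrophages make these molecules, liver sinusoidal endothelial cells make some, and Ciita is the coactivator that turns the whole set on. Human T cells make class II when activated, while mouse T cells are known for making little.

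Prf1, the gene of perforin, was detected in each library. Its level was 95.4 and 98.7 FPKM in the libraries labelled Prf KO, against 125 and 113 in those labelled WT (log2 difference -0.29, SE 0.24, limma adjusted p = 0.873). Prf1 RNA thus gave no check of the knockout labels, and every direction given here depends on those labels. Prf KO replicate 1 stood apart from the rest, with a Pearson correlation across tested genes of 0.914 to 0.924 with the others, which correlated with each other at 0.961 to 0.969. The RNA carried CD8 T cell markers, with Cd8b1, a chain of the CD8 coreceptor, at 759 and 635 in the libraries labelled Prf KO and at 654 and 737 in those labelled WT. Cd4 was listed at 0 and 1.505 in the libraries labelled Prf KO, and at 0.0125 and 0.579 in those labelled WT.

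Cd74 had the highest mean of the class II genes. It stood at 503 and 807 FPKM in the libraries labelled Prf KO, against 1449 and 645 in those labelled WT. WT replicate 1 was highest and Prf KO replicate 1 lowest, and the groups overlapped. Among the 15367 genes of a library, Cd74 ranked 76 and 55 in the libraries labelled Prf KO and 25 and 69 in those labelled WT.

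H2-Ab1, the I-A beta chain gene, had 412 and 651 FPKM in the libraries labelled Prf KO, against 1291 and 592 in those labelled WT. WT replicate 1 again stood above the other 3, and the groups overlapped. H2-Aa, the I-A alpha chain gene, had 446 and 503 FPKM in the libraries labelled Prf KO, against 850.0 and 429 in those labelled WT. The other 3 libraries lay close together for H2-Aa, their highest 1.17 times their lowest, and further apart for H2-Ab1, at 1.58 times. H2-Eb1, the beta chain gene of I-E, had 171 and 170.0 FPKM in the libraries labelled Prf KO, against 285 and 153 in those labelled WT. In C57BL/6 mice I-E is not made, because its alpha chain gene is defective, yet H2-Eb1 RNA was present in all 4 libraries. H2-Eb1 overlaps an antisense transcript, Gm20513, which unstranded reads cannot separate from it, so its values are uncertain.

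The peptide exchange genes were lower in level per length than the chains they serve. H2-DMb1 had 47.9 and 52.2 FPKM in the libraries labelled Prf KO, against 92.6 and 50.3 in those labelled WT. H2-DMa had 28.6 and 36.3 FPKM in the libraries labelled Prf KO, against 47.6 and 33.2 in those labelled WT. WT replicate 1 was highest for both. Of the 50-base stretches in annotated H2-DMb1 transcripts, 22.7% also occur in transcripts of its neighbour and near copy H2-DMb2, and 8.43% of those of H2-DMa occur in Brd2, which overlaps it on the opposite strand, so both genes' values are uncertain.

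Ciita, the coactivator, had the lowest FPKM of the 7 members, and its difference had the other sign. It ranked 8985 and 9751 among the 15367 genes in the libraries labelled Prf KO, and 10342 and 10037 in those labelled WT. Its FPKM was 1.64 and 0.868 in the libraries labelled Prf KO, against 0.598 and 0.696 in those labelled WT. The groups did not overlap, with labelled Prf KO higher, as for 13.9% of the 9805 tested genes. WT replicate 1, the highest library for the other 6 members, was the lowest for Ciita, as for 20.8% of tested genes. Its mean of 0.951 kept it out of the test. Without a filter on low values its log2 difference was 0.43 (SE 0.26, limma adjusted p = 0.832), over 13899 genes. It overlaps Dexi on the opposite strand, which adds to the uncertainty of so low a value. H2-Ab1 stood at 251 and 750.1 times Ciita in the libraries labelled Prf KO, and at 2161 and 850.1 times in those labelled WT.

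**Figure D1:**
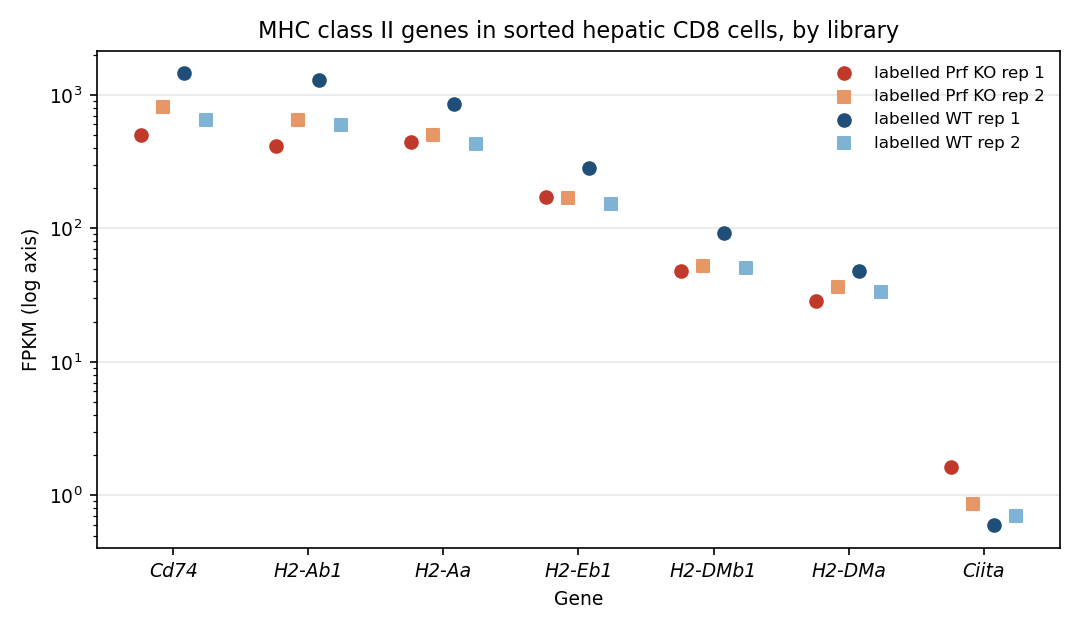
FPKM on a log axis of the 7 class II genes, 1 point per library, coloured by label with no averaging. WT replicate 1 is the highest library for 6 genes, such as Cd74 at 1449, and the lowest for Ciita at 0.598.

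WT replicate 1 was the highest of the 4 libraries for 6 of the 6 tested members. The same held for 27.2% of the 9805 tested genes, and for 6 members after upper-quartile, median or quantile scaling as well. It stood at least 1.5 times above each other library for 5 members (all but H2-DMa, at 1.31 times the next), against 3.87% of tested genes, a fold chosen after the values were seen. Summed over the 7 members, FPKM was 1611 and 2221 in the libraries labelled Prf KO, against 4017 and 1902 in those labelled WT. That was 0.482% and 0.579% of the column total in the libraries labelled Prf KO, and 1.06% and 0.484% in those labelled WT. In such bulk samples, fewer cells of a type and less RNA per cell cannot be told apart.

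Beyond that 1 library the members were less alike. The order WT replicate 1, Prf KO replicate 2, WT replicate 2, Prf KO replicate 1, from high to low, held for H2-Ab1, Cd74, H2-DMa and H2-DMb1, or 4 of 6 tested members, and for 7.83% of tested genes. H2-Aa and H2-Eb1 had WT replicate 2 lowest in place of Prf KO replicate 1. The difference between WT replicates 1 and 2 on the log2(FPKM + 1) scale ranged from 0.51 to 1.17 over the 6 members, against a median of -0.0034 over tested genes, of which 13.6% reached at least the lowest of the 6. Between Prf KO replicates 1 and 2 it ranged from -0.68 to 0.0075 over the members, with a median of -0.25 against -0.14 over tested genes, and 60.2% of tested genes were at or below the highest of the 6.

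Some ratios between members within a library varied less than the levels did. Cd74 over H2-Ab1 was 1.22 and 1.24 in the libraries labelled Prf KO and 1.12 and 1.09 in those labelled WT, a range of 1.14 times across libraries in which Cd74 itself ranged 2.88 times. H2-Eb1 over H2-Aa was 0.383 and 0.338 in the libraries labelled Prf KO, and 0.336 and 0.356 in those labelled WT. H2-Ab1 over H2-Aa was less even, at 0.923 and 1.29 in the libraries labelled Prf KO and 1.52 and 1.38 in those labelled WT. Prf KO replicate 1 was thus the library in which the beta chain was below the alpha chain in FPKM. H2-DMb1 over H2-DMa was 1.67 and 1.44 in the libraries labelled Prf KO, and 1.95 and 1.52 in those labelled WT.

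The promoters of such genes are known for an X box, bound by the RFX complex and CREB, and a Y box, bound by NF-Y, which together hold Ciita. Letters of both were searched in RefSeq promoters of build GRCm38.p6, each 250 bases before to 50 after a start, on both strands. The stretches below are shown because these 3 members hold both boxes at like spacing. WT replicate 1 was the highest library for them, but also for all 6 tested members. Each is on its gene's strand and ends at the base before the start. They are H2-Aa at chr17:34287824-34287924 (minus strand), H2-Eb1 at chr17:34305756-34305866 (plus strand) and H2-DMb1 at chr17:34153077-34153190 (plus strand). Capitals mark an X box core GNAACT, an X2 box as TGATGCT or TGACGTCA, and a Y box core TGATTGG.
H2-Aa: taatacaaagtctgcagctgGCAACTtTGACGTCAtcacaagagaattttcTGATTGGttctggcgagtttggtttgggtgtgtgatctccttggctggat
H2-Eb1: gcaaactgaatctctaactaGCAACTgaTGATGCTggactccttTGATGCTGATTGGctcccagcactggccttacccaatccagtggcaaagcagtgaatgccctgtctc
H2-DMb1: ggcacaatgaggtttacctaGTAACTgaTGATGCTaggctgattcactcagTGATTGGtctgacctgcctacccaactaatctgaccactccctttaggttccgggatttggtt
The X core began 31, 30 and 31 bases before the Y core in H2-Aa, H2-Eb1 and H2-DMb1, in that order. H2-Aa held the TGACGTCA form and the other two the TGATGCT form, of which H2-Eb1 has a second copy that overlaps its Y core by 1 base. Among all 32851 promoters of this length, 42.8% hold GNAACT, 7.82% TGATTGG, 4.27% TGATGCT and 1.79% TGACGTCA. The pair GNAACT 20 to 50 bases before TGATTGG on the same strand was in 0.286%, with the spacing set after these promoters had been read. Both RefSeq promoters of H2-DMa held no TGATTGG and no such pair, though WT replicate 1 was highest for it too. The promoter of H2-Eb2, a class II gene outside the members, did hold the pair. H2-Eb2 had 0 and 0.720 FPKM in the libraries labelled Prf KO, against 0.102 and 0.324 in those labelled WT. A match describes letters and not a site in use. Promoters of H2-Ab1, Cd74 and Ciita are not used here.

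The comparison between the groups asked whether class II RNA differed with the perforin label. All 6 tested members had a negative log2 difference, labelled Prf KO minus labelled WT, but 0 of 6 passed limma's test at an adjusted p under 0.05, where 0% of the 9805 tested genes did. At an unadjusted p under 0.05 the count was 0 of 6 members and 470 of 9805 genes (4.79%). The groups overlapped for all 6, while they did not overlap for 35.9% of tested genes. H2-Ab1 had a log2 difference of -0.75 (SE 0.41, 95% interval -1.68 to 0.17, limma adjusted p = 0.866). Cd74 had -0.60 (SE 0.42, 95% interval -1.55 to 0.35, limma adjusted p = 0.866). The intervals of all 6 include no difference, and those of 5, all but H2-DMa, also reach below -1, a level less than 1/2 as high in the libraries labelled Prf KO.

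The other 4 tested members had smaller differences, -0.44 for H2-DMb1, -0.35 for H2-Aa and -0.29 each for H2-DMa and H2-Eb1. The median over the 6 was -0.40, beside -0.08 over all tested genes, of which 58.3% were below 0. These differences rest on WT replicate 1. Without it H2-Ab1 was at -0.19, Cd74 at -0.016, H2-DMb1 at -0.0091 and H2-DMa at -0.039, and H2-Aa and H2-Eb1 turned to 0.14 and 0.16. Without WT replicate 2, by contrast, H2-Ab1 was at -1.32 and Cd74 at -1.18, and neither passed (limma adjusted p = 1.00 for both). Without Prf KO replicate 1, H2-Ab1 was at -0.43 and Cd74 at -0.26, and without Prf KO replicate 2 at -1.08 and -0.94. With 2 libraries in each group, the smallest two-sided p of an exact permutation test is 0.333.

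**Figure D2:**
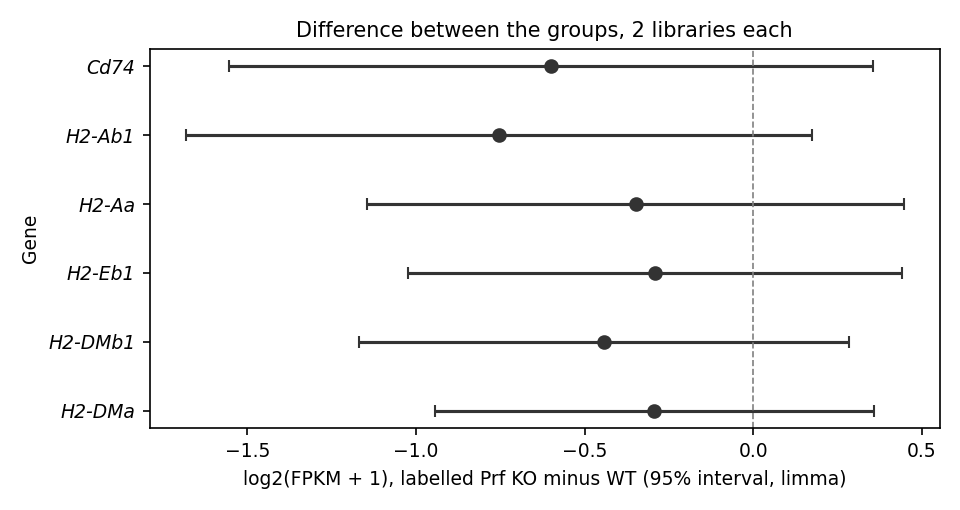
Difference in log2(FPKM + 1) of the 6 tested class II genes, labelled Prf KO minus labelled WT, with limma's 95% interval from 2 libraries per group. All 6 points lie below 0 and all 6 intervals cross it, with H2-Ab1 at -0.75 the lowest.

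Among the other class II genes, H2-DMb2, H2-Oa and H2-Ob were tested and 0 of 3 passed. As 0 of all 9805 tested genes passed, this count and those of the lists below set no list apart. H2-DMb2, the near copy of H2-DMb1, had 11.4 and 50.9 FPKM in the libraries labelled Prf KO, against 66.4 and 44.1 in those labelled WT. Prf KO replicate 1 was far below the rest, and H2-DMb2 over H2-DMb1 was 0.239 there, against 0.975 in Prf KO replicate 2 and 0.717 and 0.876 in the libraries labelled WT. H2-Ob, the beta chain gene of H2-DO, which restrains H2-DM and is known from B cells, had 21.9 and 46.9 FPKM in the libraries labelled Prf KO, against 38.0 and 48.9 in those labelled WT. H2-Oa, its partner, had 4.98 and 4.80 FPKM in the libraries labelled Prf KO, against 5.98 and 6.84 in those labelled WT. WT replicate 2 was highest for both H2-DO genes. H2-Oa overlaps another gene on the opposite strand. H2-Eb2, untested because it was low, ranged from 0 to 0.720, and H2-Ea is not analysed here.

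Genes that act with Ciita or before it gave no call, like the rest of the 9805 tested genes. Of 8 genes for RFX, NF-Y and related factors 0 passed, with a median log2 difference of -0.07, beside -0.08 over all tested genes. Nfyc and Nfyb, both NF-Y subunits, had 12.5 and 15.5 FPKM and 13.99 and 14.3 FPKM in the libraries labelled Prf KO, against 15.98 and 19.7 FPKM and 12.97 and 13.1 FPKM in those labelled WT. Rfxap, a subunit of RFX named after its values were seen, had 6.34 and 4.54 FPKM in the libraries labelled Prf KO, against 0.907 and 2.13 in those labelled WT. Its log2 difference was 1.38 (SE 0.43, unadjusted p = 0.0118, limma adjusted p = 0.866). Of 10 genes of the interferon gamma route, which induces Ciita in many cells, 0 passed, with a median of -0.21. Ifng, the cytokine itself, had 301 and 529 FPKM in the libraries labelled Prf KO, against 427 and 502 in those labelled WT. Ifngr1, a receptor chain, had 1446 and 2458 FPKM in the libraries labelled Prf KO, against 2235 and 2219 in those labelled WT.

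Genes of the endosomal route process antigen for class II molecules. Of 11 tested genes of endosomal processing and class II turnover 0 passed. The median log2 difference was -0.06, beside -0.08 over all tested genes. WT replicate 1 was highest for 2 of the 11, and for 27.2% of all tested genes. Ctss, the cathepsin that trims the invariant chain, had 84.5 and 101 FPKM in the libraries labelled Prf KO, against 94.6 and 97.9 in those labelled WT. Ctsd, an aspartic protease of lysosomes, had 155 and 108 FPKM in the libraries labelled Prf KO, against 91.3 and 114 in those labelled WT. March1, a ubiquitin ligase that removes class II from the surface, had 1.89 and 3.01 FPKM in the libraries labelled Prf KO, against 4.54 and 2.53 in those labelled WT, so WT replicate 1 was highest.

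Class I genes gave a scale for these levels. B2m, the light chain of class I, had 2883 and 2194 FPKM in the libraries labelled Prf KO, against 2457 and 2893 in those labelled WT. H2-K1, a class I heavy chain gene, had 1706 and 1888 FPKM in the libraries labelled Prf KO, against 1687 and 1728 in those labelled WT. H2-Ab1 was 0.241 and 0.345 times H2-K1 in the libraries labelled Prf KO, and 0.766 and 0.343 times in those labelled WT. Tap1 and Tap2, peptide transporter genes that lie inside the class II cluster, had 73.0 and 69.4 FPKM and 102 and 142 FPKM in the libraries labelled Prf KO, against 92.0 and 67.3 FPKM and 122 and 131 FPKM in those labelled WT. WT replicate 1 was highest for Tap1 and not for Tap2, and both overlap genes on the opposite strand.

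Markers of antigen-presenting cells differed widely in FPKM between genes. Of 18 conventional dendritic cell markers 12 were tested and 0 passed. WT replicate 1 was highest for 7 of the 12, and for 27.2% of all tested genes. The whole list summed to 1227 and 1503 FPKM in the libraries labelled Prf KO, against 1678 and 1810 in those labelled WT, so WT replicate 2 was highest. Without Ccr7, which T cells also make and which led the list, the sum was 132 and 165 FPKM in the libraries labelled Prf KO, against 187 and 143 in those labelled WT. Of the genes left, Irf8 (30.1) and Ppt1 (28.0) had the highest FPKM in WT replicate 1. Whether the genes left came from dendritic cells was not tested. Cd209a, a lectin gene of one dendritic cell type, had 0.518 and 5.83 FPKM in the libraries labelled Prf KO, against 11.4 and 5.66 in those labelled WT. Clec10a, another lectin gene, had 1.83 and 3.57 FPKM in the libraries labelled Prf KO, against 6.15 and 2.42 in those labelled WT. The order of libraries seen for H2-Ab1 and Cd74 held for these and for Ccl22 and Naaa, all named after their values were seen. That was 4 of the 12 tested, beside 7.83% of all tested genes. Other markers of the list differed, such as Irf8, a dendritic cell transcription factor gene. It had 30.0 and 34.4 FPKM in the libraries labelled Prf KO, against 30.1 and 19.9 in those labelled WT. Zbtb46, which encodes a transcription factor of dendritic cells, had 1.91 and 0.933 FPKM in the libraries labelled Prf KO, against 3.05 and 0.788 in those labelled WT.

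Defining dendritic cell genes were at low to middling FPKM, and Clec9a was listed at 0 in WT replicate 1. Itgax, the CD11c gene, had 7.97 and 7.003 FPKM in the libraries labelled Prf KO, against 11.0 and 2.95 in those labelled WT. Flt3, the receptor for the dendritic cell growth factor, had 0.860 and 0.443 FPKM in the libraries labelled Prf KO, against 1.38 and 0.656 in those labelled WT. Clec9a and Xcr1 mark the dendritic cells that carry CD8 alpha in lymphoid organs. Clec9a had 0.425 and 1.26 FPKM in the libraries labelled Prf KO, against 0 and 0.521 in those labelled WT. Xcr1 had 0.280 and 0.469 FPKM in the libraries labelled Prf KO, against 0.404 and 0.249 in those labelled WT. Both were thus highest in Prf KO replicate 2, and neither was tested. Siglech, a plasmacytoid dendritic cell gene, had 2.87 and 0.0950 FPKM in the libraries labelled Prf KO, against 0.201 and 0.362 in those labelled WT.

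B cell markers were highest in Prf KO replicate 2 more often than in any other library. Of 20 listed 18 were in the table, 15 were tested and 0 passed. WT replicate 1 was highest for 3 of the 15, and for 27.2% of all tested genes. Prf KO replicate 2 was highest for 10 of the 15, and its share over all tested genes was not counted. The B cell markers summed to 64.2 and 185 FPKM in the libraries labelled Prf KO, against 110 and 122 in those labelled WT. Cd79b, a signalling chain of the B cell receptor, had 13.1 and 30.8 FPKM in the libraries labelled Prf KO, against 23.6 and 23.8 in those labelled WT. Cd79a, its partner, had 4.02 and 8.21 FPKM in the libraries labelled Prf KO, against 7.06 and 7.71 in those labelled WT. Ms4a1, the CD20 gene, had 3.76 and 11.9 FPKM in the libraries labelled Prf KO, against 3.17 and 10.9 in those labelled WT. Of the 18 B cell markers in the table, 4 and 2 were listed at 0 in the libraries labelled Prf KO, and 2 and 0 in those labelled WT. Pax5, the B cell transcription factor, was listed at 0 in both libraries labelled Prf KO, and at 0 and 0.152 in those labelled WT.

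Macrophage and endothelial markers were most often highest in Prf KO replicate 1, the library that correlated least with the rest. The share of all tested genes highest in that library was not counted. Of 18 macrophage and Kupffer cell markers 13 were tested, 0 passed, and 6 were highest in that library. Cd68 alone of the 13 was highest in WT replicate 1, at 14.8 FPKM. The whole list summed to 1738 and 2531 FPKM in the libraries labelled Prf KO, against 2521 and 2633 in those labelled WT, so Prf KO replicate 1 was lowest. Without Lyz2, which led the list, that library was highest, and the sum was 229 and 140 FPKM in the libraries labelled Prf KO, against 134 and 123 in those labelled WT. Csf1r, a macrophage growth factor receptor gene that overlaps another on the opposite strand, had 38.2 and 24.3 FPKM in the libraries labelled Prf KO, against 17.1 and 17.1 in those labelled WT. Emr1, the F4/80 gene, ranged from 0.615 to 1.65, and Clec4f, a Kupffer cell gene, was at 1.98 in Prf KO replicate 1 and from 0 to 0.0334 in the other 3. Of 17 sinusoidal endothelial markers 16 were tested, 0 passed, and 15 were highest in Prf KO replicate 1. Their sum was 723 and 259.5 FPKM in the libraries labelled Prf KO, against 507 and 179.6 in those labelled WT. WT replicate 1, where the class II sum was highest, thus came next after Prf KO replicate 1. The endothelial marker Dnase1l3 was highest in WT replicate 1, at 105 FPKM. Stab2, a scavenger receptor gene of these cells, had 8.04 and 2.53 FPKM in the libraries labelled Prf KO, against 4.52 and 0.545 in those labelled WT. Of 8 plasmacytoid dendritic cell, 8 monocyte and 10 hepatocyte markers, 6, 8 and 3 were tested and 0 passed. The hepatocyte markers summed to 33.1 and 11.0 FPKM in the libraries labelled Prf KO, against 18.1 and 14.5 in those labelled WT. Without Trf, which led that list, they summed to 24.8 and 1.44 FPKM in the libraries labelled Prf KO, against 0 and 4.09 in those labelled WT. The part of any of these cells in the class II levels was not tested.

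**Figure D3:**
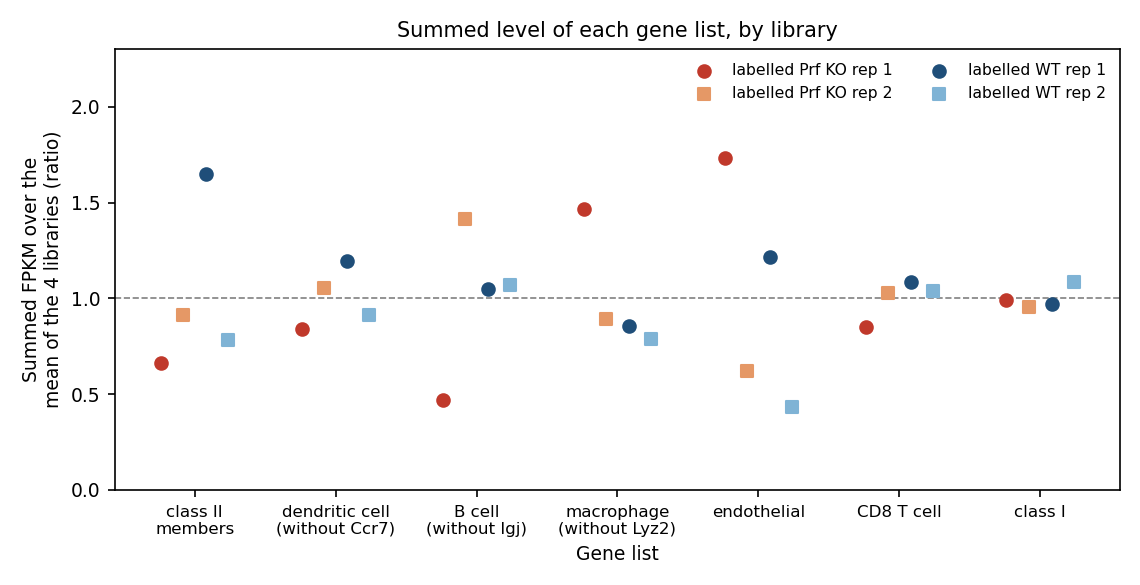
Summed FPKM of each gene list in each library, as a ratio to that list's mean over the 4 libraries, 1 point per library. WT replicate 1 is highest for the class II members (sum 4017) and for dendritic cell markers without Ccr7 (187), Prf KO replicate 2 for B cell markers without Igj (121), and Prf KO replicate 1 for macrophage markers without Lyz2 (229) and endothelial markers (723).

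Genes of the costimulation list encode molecules that antigen-presenting cells show beside class II, and include the inhibitory ligand genes Cd274 and Pdcd1lg2. The order of libraries seen for H2-Ab1 and Cd74 held for 1 of the 7, Cd40, and for 7.83% of all tested genes. All 7 genes of the list were tested and 0 passed, with a median log2 difference of -0.25, beside -0.08 over all tested genes. Cd40, a receptor through which T cells license antigen-presenting cells, had 0.135 and 4.54 FPKM in the libraries labelled Prf KO, against 8.57 and 2.77 in those labelled WT. Cd83 had 48.9 and 145 FPKM in the libraries labelled Prf KO, against 118 and 89.8 in those labelled WT. Cd86, a ligand of CD28, had 13.8 and 31.3 FPKM in the libraries labelled Prf KO, against 31.2 and 21.9 in those labelled WT. Prf KO replicate 1 was lowest for all of these 3, and for the rest of the list except Cd80, where it was highest (1.93 FPKM). The share of all tested genes lowest in that library was not counted.

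**Figure D4:**
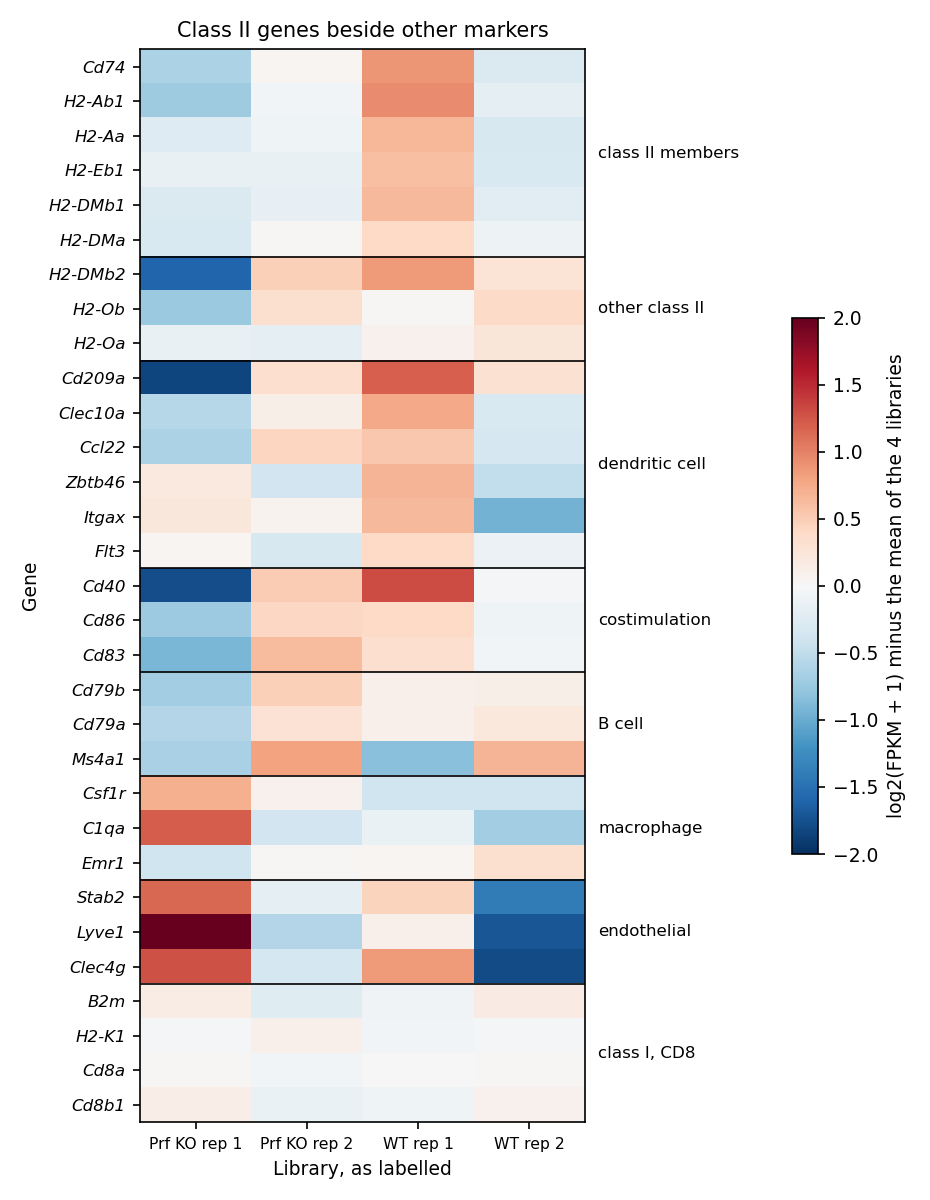
Colour gives log2(FPKM + 1) minus the gene's mean over the 4 libraries (columns), with the scale ending at -2 and 2. Rows are class II genes and a choice of genes from the other lists. The dendritic cell rows shown are all highest in WT replicate 1. Of the 12 tested markers of that list, 7 were highest there, 4 in WT replicate 2 and 1 in Prf KO replicate 2. WT replicate 1 is red for the 6 tested class II members, for Cd209a (11.4 FPKM) and for Cd40 (8.57 FPKM), while B2m, H2-K1, Cd8a and Cd8b1 stay pale.

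Likeness of pattern was measured over the 4 libraries, as the mean absolute difference in log2(FPKM + 1) from the mean of H2-Aa, H2-Ab1 and H2-Eb1 after each gene's own mean was subtracted. The median of this distance over 9805 genes was 0.411. The members H2-DMb1, Cd74 and H2-DMa, which did not enter that mean, ranked 16, 121 and 217 among all tested genes, at 0.0726, 0.142 and 0.167. Of the other lists, the nearest genes were Trf at rank 29, Clec10a 61, March1 100, Naaa 173 and Cd68, a macrophage marker, 256. These were picked by rank, and every other tested gene of those lists lay further off, from Tap1 at 649. Ranks up to 256 take in 2.61% of all tested genes, and the number of list genes looked through was not counted. Trf was listed as a hepatocyte marker, but the other tested markers of that list, Alb and Apoa2, ranked 9770 and 9787. Genes in the same order of libraries could lie far off, since the distance also counts the size of the differences: H2-DMb2 ranked 8407, Cd40 9002 and Cd209a 9133. The 8 nearest genes outside the members were Zfp507, Prss30, Eri2, Axin1, Ccdc58, B4galt4, Ranbp6 and Jazf1, at 0.0244 to 0.0641. Their values ran from 0.562 (Prss30) to 11.7 FPKM (Axin1). At such low values the added 1 shrinks differences between libraries, which it hardly does for the chain genes, so these distances depend partly on it. Axin1, a scaffold protein gene of Wnt signalling, had 5.34 and 6.35 FPKM in the libraries labelled Prf KO, against 11.7 and 5.18 in those labelled WT.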

How the data were processed

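Total RNA of sorted cells was made into libraries with an Illumina TruSeq RNA kit, which does not mark strand, per the labels' protocols. Bowtie 0.12.2 and build mm8 are named, with no role, per the submitters' processing notes, and no quantification tool is named in the labels. The deposited values carry no named unit and were read as FPKM from their range and their unequal column totals (334493 and 383498 for the libraries labelled Prf KO, and 378364 and 392785 for those labelled WT). Among genes under 0.1 in a pair of libraries, at most 7.64% shared the commonest ratio, so whole reads were not recovered and the depth is unknown.

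Values were analysed as log2(FPKM + 1) in R 4.3.3 with limma 3.58.1 (intensity trend, two-sided, Benjamini-Hochberg over 9805 genes with a mean of at least 1). The procedure was run on simulated data with known changes, and how many of these it recovered is not reported here. Pseudocounts of 0.1 and 5, other filters and scalings, other variance models, the replicate number as a block and leaving out each library were tried. Members and lists were chosen with earlier results of these data known. The rule named Prf1, all members, defining markers, up to 4 members of a list with the highest mean, and the 8 genes nearest in pattern, and genes beyond it were chosen after their values were seen. The values of 1 defining marker are not reported here. Gene overlaps and shared 50-base stretches come from GENCODE M21. Figures were drawn with matplotlib 3.10.9.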

Additional observations from a re-analysis of the deposited data

How the results depend on the processing

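The number of genes called by limma was 0 under every setting with all libraries, and ranged from 0 to 1 with a library left out. Such fits give the single remaining library the spread of the opposite group. The log2 difference, labelled Prf KO minus labelled WT, then ranged from -1.32 to -0.19 for H2-Ab1, -1.18 to -0.016 for Cd74, -0.84 to 0.14 for H2-Aa, -0.74 to 0.16 for H2-Eb1, -0.88 to -0.0091 for H2-DMb1, -0.55 to -0.039 for H2-DMa and 0.18 to 0.68 for Ciita. The upper ends of H2-Aa and H2-Eb1, 0.14 and 0.16, came without WT replicate 1. With all libraries, other filters, other variance models and the replicate block cannot change a log2 difference, so only pseudocounts and scalings could turn a direction. Those kept the direction of these 7 differences. No tested member passed in any setting with all libraries. Ciita, which has no test with the filter, was at 0.80 with a pseudocount of 0.1 and 0.14 with 5, since a pseudocount weighs most on low values. The median log2(FPKM + 1) of the tested members in Prf KO replicate 1 was 8.06, and 8.19 and 8.21 after upper-quartile and quantile scaling. The replicate numbers are shared by the groups, but nothing in the labels pairs the libraries. The replicate 1 minus replicate 2 differences of the 2 groups correlated at 0.068 across genes, and with the replicate block limma called 0 genes. H2-Ab1 stayed at -0.75, which the block cannot change because each group holds 1 library of each replicate number. The number of libraries, 2 per group, limits these comparisons.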
